A study of Homo sapiens with 9 samples.

Results

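The zinc proteases that cut extracellular matrix and cell-surface proteins, and their tissue inhibitors, were examined in ACHN, an established line of human renal cell carcinoma. Members were chosen by gene name alone: every gene of the expression table named MMP, ADAM, ADAMTS, ADAMTSL or TIMP with a number. There were 72 members among 57773 features, namely 22 MMP, 22 ADAM, 19 ADAMTS, 5 ADAMTSL and 4 TIMP genes. Of these, 36 passed a filter on low values (a mean signal of at least 10 over all libraries) and were tested among 12985 features. A further 18 members had some signal but too little to be tested, and 18 were at 0 in every library.

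Matrix metalloproteinases (MMPs) cut collagens, laminins and other matrix proteins and are either secreted or held at the cell membrane. ADAMs are mostly membrane-bound proteases that release the outer parts of receptors, ligands and adhesion proteins, and ADAMTS enzymes are secreted relatives with thrombospondin repeats that cut proteoglycans and procollagens. ADAMTS-like proteins lack the protease domain, and the TIMPs bind and block the active sites of many of these enzymes. In carcinomas these families are known for their part in matrix remodelling and invasion.

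RNA sequencing was done on 9 libraries, 3 each of sgControl, KO#1 and KO#2. All were ACHN cells: sgControl cells had received a control guide RNA, and KO#1 and KO#2 cells had been targeted in ELOVL5, which encodes an elongase of polyunsaturated fatty acids, with CRISPR/Cas9 and 1 of 2 independent guides. The series asks about ELOVL5 in growth and invasion of renal carcinoma. The labels do not say whether knockout cells were single clones or pools, nor whether the replicates were separate cultures, so p-values reflect the spread among these libraries and that spread may be technical only. Replicate numbers are places in sample order and pair nothing.

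The deposited values are a quantile-normalized signal per gene, and all libraries had the same total of 8625043.6. ELOVL5 was at 1999 to 2713 in sgControl, 805 to 1345 in KO#1 and 434 to 1805 in KO#2, lower in every knockout library but not absent. Raw read numbers could be read back for signals up to 356 and are given below where a value rests on few reads. KO#2 replicate 1 stood apart: it correlated with its group at 0.672 and 0.737 on the log2 scale, where the other libraries correlated within their groups at 0.937 to 0.978. A gene with 10 reads had a signal of at least 55.7 in that library and of at most 13.9 in the other 8. Its values also followed GC content. Of 23 tested members with at least 50% GC, 22 were higher in it than in the mean of the other KO#2 libraries, and of 13 members under 50% GC, 10 were lower. Results are therefore also given without that library. All 12 markers of a renal epithelial line had signal in every group, and 3 of them were called with all libraries. EPCAM rose from a mean of 4.93 in sgControl to 57.2 with KO#1 and 257 with KO#2 (adjusted p = 0.010 and 0.00076). DPP4 fell from 1395 to 210 and 150 (0.018 and 0.0055), and CDH1, which encodes E-cadherin, fell from 5357 to 381 and 543 (0.00034 and 0.00076). Without KO#2 replicate 1, KRT19 was also lower with KO#1 and KO#2 (limma adjusted p = 0.028 and 0.024). In that fit KRT18 was higher and GGT1 lower with KO#2 (0.034 and 0.031). COL1A2, DCN and LUM of fibroblasts, KDR and EMCN of endothelium and CD3E and LYZ of leukocytes were at 0 throughout. The summed signal of the 6 fibroblast markers was 963 to 1148 in sgControl, 256 to 561 in KO#1 and 252 to 639 in KO#2, most of it from THY1. That of the 6 leukocyte markers was 7.0 to 14.3 in sgControl, 4.0 to 9.67 in KO#1 and 4.33 to 103 in KO#2, where CD68 reached 85.9 and CD14 17.0 in replicate 1. The part of either sum in the results was not tested.

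**Figure D1:**
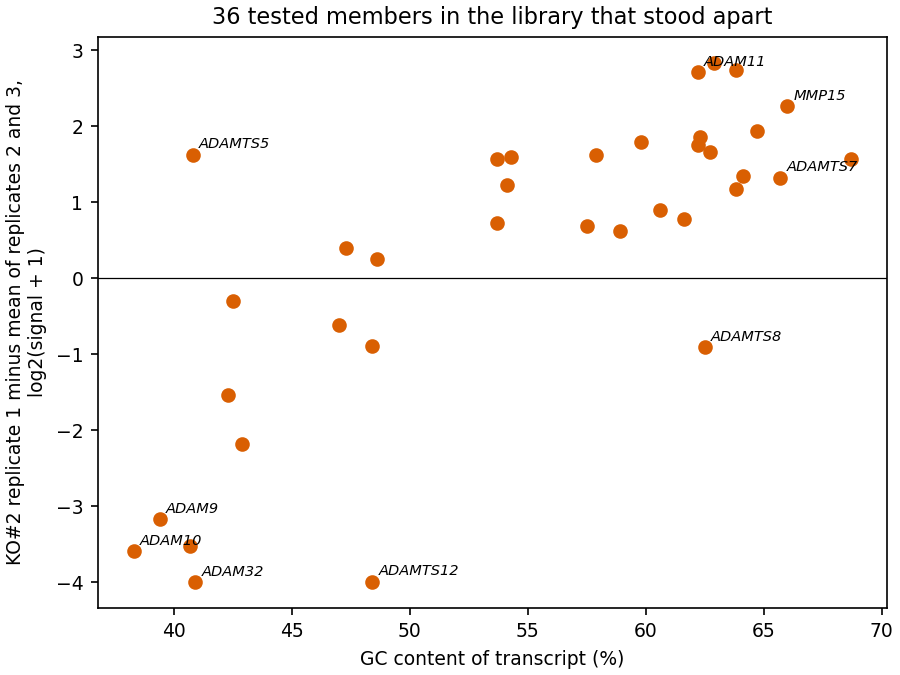
Each point is 1 of the 36 tested members, with the GC content of its transcript in percent on the horizontal axis and, on the vertical axis, the signal of KO#2 replicate 1 minus the mean of KO#2 replicates 2 and 3 on the log2(signal + 1) scale. Members of low GC such as ADAM10 (38.3% GC, a difference of -3.58) lay below 0, and GC-rich members such as MMP15 (66.0% GC, 2.27) lay above.

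Control cells carried the mRNA of membrane-bound sheddases and inhibitors, and little or none of MMP1, MMP2, MMP3, MMP8, MMP9, MMP10 and MMP13. Per kb of transcript, ADAM9, a membrane-bound sheddase, had the highest sgControl signal at 1206, followed by TIMP2 at 651. ADAM10, the main sheddase of Notch receptors and cadherins, followed at 343, TIMP1 at 301, and MMP14, the membrane-bound collagenase that activates pro-MMP2, at 279. Next came ADAM15 at 272, ADAMTS1 at 217, ADAMTS3 at 215, ADAM17, the tumour necrosis factor convertase, at 162, and ADAMTS9 at 155. The ranges of the sgControl libraries overlapped for all neighbours in this order but 3 pairs, ADAM9 and TIMP2, TIMP2 and ADAM10, and ADAMTS3 and ADAM17. This order depends on the transcript used, the longest annotated one, of 11.43 kb for ADAM10 and 3.65 kb for TIMP2. Before division by length, the sgControl mean was 3919 for ADAM10 and 2376 for TIMP2. Of the collagenases, gelatinases and stromelysins other than MMP11 and MMP14, MMP2 and MMP8 were at 0 in every library. MMP1, MMP3, MMP9, MMP10 and MMP13 had at most 5 reads in any library. The highest number was 5 reads for MMP1, 4 for MMP9, 3 for MMP3, 2 for MMP10 and 1 for MMP13. By contrast, MMP11, or stromelysin-3, was at 125 per kb in sgControl, and the secreted MMP28 was at 58.4. ADAM2, ADAM5, ADAM6, ADAM7, ADAM18, ADAM20, ADAM21, ADAM29 and ADAM30, several of which are known from testis and sperm, were at 0 in every library. So were ADAMTS2, ADAMTS19, ADAMTS20, MMP20, MMP26, MMP27 and TIMP3, the TIMP that binds to matrix. A listed 0 is a limit of detection at these depths and not proof of absence.

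**Figure D2:**
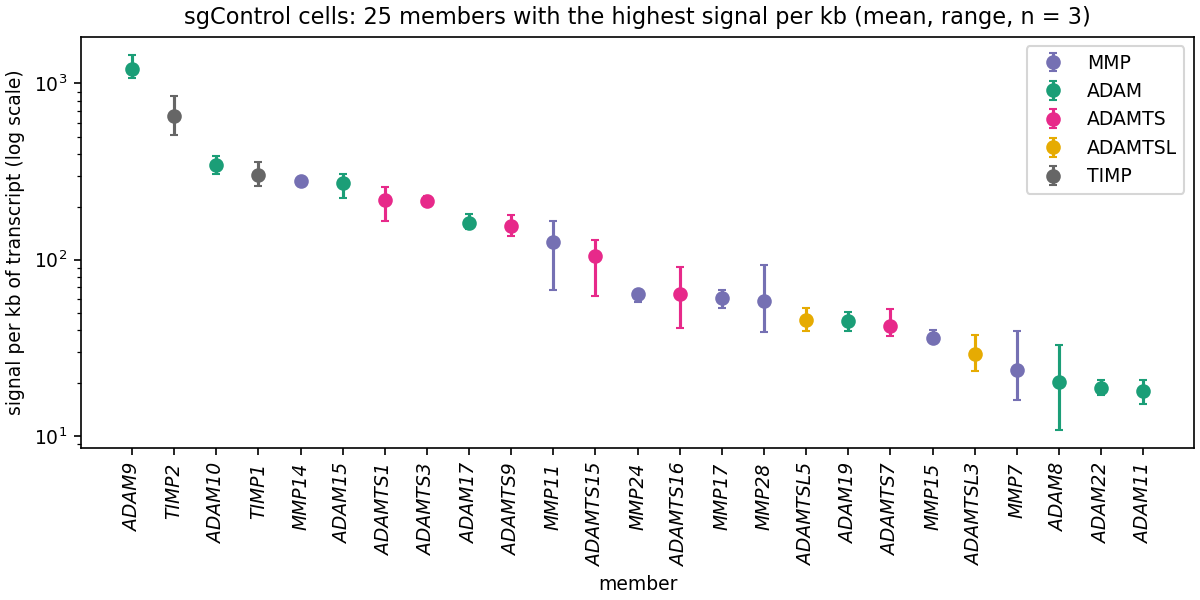
The 25 members with the highest sgControl signal per kb are ordered along the horizontal axis, with signal per kb of transcript on a log-scaled vertical axis. Points are means of 3 libraries, bars run from the lowest to the highest library, and colours mark the family. ADAM9 at 1206 and TIMP2 at 651 lead the order.

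Between control and knockout cells, 5 of the 36 tested members (13.9%) changed with KO#1 and 3 (8.33%) with KO#2, where 2.33% and 2.04% of all tested features were called (limma, two-sided, Benjamini-Hochberg adjusted p under 0.05). Calls with all libraries below are those of this reported fit, and other settings are given at the end. With KO#1, ADAM12, ADAMTS12 and TIMP4 rose and ADAMTS8 and MMP28 fell, where 1.36% of all features were called higher and 0.97% lower. With KO#2, TIMP4 rose and ADAMTS8 and MMP28 fell, where 1.17% were called higher and 0.87% lower. Thus 3 members were called alike with both guides, against 1.38% of all features. The mean of both guides against sgControl added ADAMTS6 (higher) and ADAMTS9 (lower), for 7 members against 3.1% of all features. Of these 7, TIMP4, ADAM12 and ADAMTS12, with sgControl means of 0.52, 8.85 and 0, passed the filter on low values only through knockout libraries. ADAMTS8, with means of 0.48 in KO#1 and 4.96 in KO#2, passed it only through sgControl. Such a pass favours a difference, so these shares are no test of the families. With a mean of at least 50, 1 of 27 members (3.7%) was called with KO#1 and 0 with KO#2, against 1.31% and 1.27% of all features. The median difference over the 36 members was 0.13 with KO#1 and -0.20 with KO#2 on the log2(signal + 1) scale, and over all tested features it was 0.03 and -0.01. Leaving out 1 library moved the KO#2 median from -0.39 (without KO#2 replicate 1) to 0.20 (without KO#2 replicate 2) and the KO#1 median to as low as 0.055 (without KO#1 replicate 2), so these medians give no direction. Both comparisons share the sgControl libraries. In bulk RNA, fewer cells with a transcript and less of it per cell cannot be told apart. Without KO#2 replicate 1, 15 members were called with KO#1, against 12.3% of all features, and 14 with KO#2, against 8.02%. With KO#1, 6 were higher and 9 lower, where 5.99% and 6.27% of all features were. With KO#2, 6 were higher and 8 lower, where 3.88% and 4.14% were. Of these, 12 were called alike with both guides, against 6.15% of all features: ADAM12, ADAMTS6, ADAMTS7, ADAMTS12 and TIMP4 higher, and ADAM33, ADAMTS8, ADAMTS9, ADAMTS15, ADAMTS16, ADAMTSL3 and MMP28 lower.

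Counted by library, with no test, 4 tested members (11.1%) had all 6 knockout libraries above every sgControl library, namely ADAM12, ADAMTS6, ADAMTS7 and TIMP4, where 6.61% of all features did. In 7 members (19.4%) all 6 lay below: ADAM33, ADAMTS8, ADAMTS9, ADAMTS14, ADAMTS17, ADAMTSL3 and MMP28, where 5.9% of all features did. Here too, members such as TIMP4, ADAM33 and ADAMTS8 passed the filter only through the groups where they were high.

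**Figure D3:**
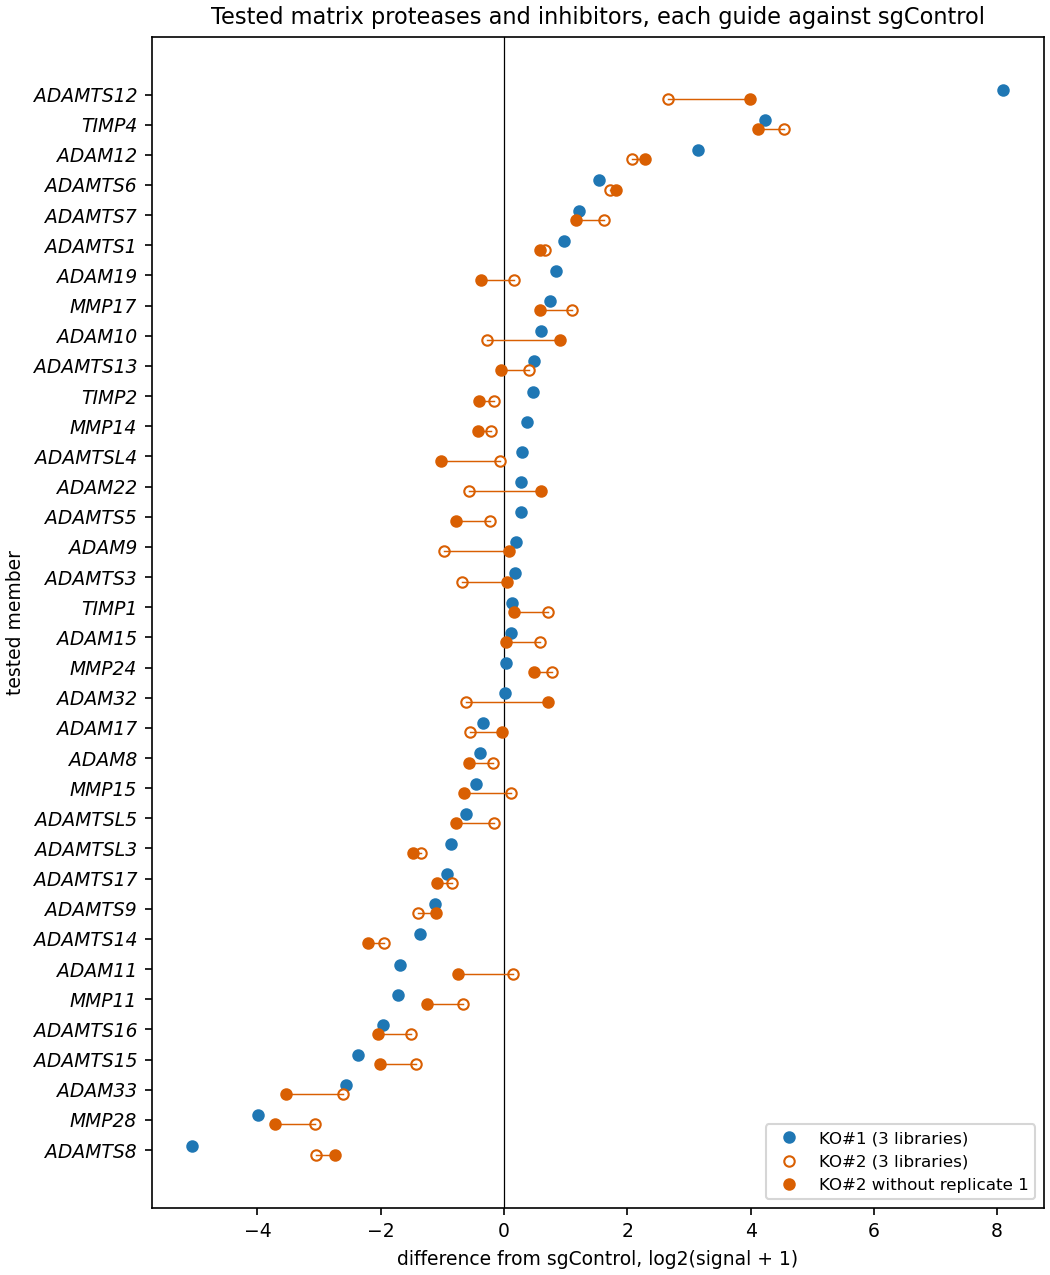
For each of the 36 tested members, listed on the vertical axis in the order of the KO#1 difference, the horizontal axis gives the difference from sgControl in log2(signal + 1). Blue points are KO#1, open orange points KO#2 with 3 libraries, and filled orange points KO#2 without replicate 1, joined by a line. ADAMTS12, TIMP4 and ADAM12 are at the top and ADAMTS8 and MMP28 at the bottom, and ADAM10 changes side of 0 without that library, from -0.28 to 0.92. Differences of genes at or near 0 in a group, such as ADAMTS12, depend on the 1 added to the signal.

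Among the ADAMTS enzymes, 13 of 19 were tested, and ADAMTS12, which cuts the cartilage matrix protein COMP, had the lowest adjusted p with KO#1. It lies on chromosome 5 and had no reads in any sgControl library. With KO#1 its signals were 144, 263 and 536, the first 2 resting on 168 and 306 reads. With KO#2 they were 0, 12.7 and 17.4, from 0, 10 and 23 reads. Every KO#1 library thus stood above every library of both other groups, whereas KO#2 overlapped sgControl at 0 through replicate 1. Since ADAMTS12 is listed at 0 in sgControl, no fold change is given. The limma test gave an adjusted p of 0.00254 for KO#1 and 0.275 for KO#2, and leaving out any 1 library kept the KO#1 call, with adjusted p up to 0.0225. Without KO#2 replicate 1 the adjusted p for KO#2 was 0.00195. KO#2 minus KO#1 was -5.44 on the log2(signal + 1) scale with all libraries (adjusted p = 0.325) and -4.11 without KO#2 replicate 1 (adjusted p = 0.0285), where ADAMTS12 was the only member called between the guides, against 0.1% of all features. With all libraries limma called 0 of 12985 features between the guides (0.0%), and 529 had an unadjusted p under 0.05. The 20 nearest tested genes on chromosome 5 were all lower in KO#1, with a median difference of -0.85, and in KO#2, with a median of -1.24 (-0.78 without KO#2 replicate 1), opposite to ADAMTS12.

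The promoters of the members that went from few or no reads to many, ADAMTS12, ADAM12 and TIMP4, and that of MMP7, which went the other way, are shown to set their sequences beside the values. They are the 250 bases before the first listed start in RefSeq (GRCh38.p14), in lower case with motif matches in capitals. The motifs, searched on both strands and chosen after the values had been seen, were TGANTCA for AP-1, TATAAA for the TATA box, GGGCGG for the GC box, and the letters GGAAGT for ETS factors. None of their matches in these windows overlapped.
ADAMTS12, chr5:33891991-33892240, minus strand: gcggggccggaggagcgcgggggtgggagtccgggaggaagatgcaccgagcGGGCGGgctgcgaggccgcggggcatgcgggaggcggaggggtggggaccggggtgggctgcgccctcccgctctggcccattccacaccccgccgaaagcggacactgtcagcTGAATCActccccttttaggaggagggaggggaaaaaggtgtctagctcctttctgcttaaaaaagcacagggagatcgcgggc
ADAM12, chr10:126388478-126388727, minus strand: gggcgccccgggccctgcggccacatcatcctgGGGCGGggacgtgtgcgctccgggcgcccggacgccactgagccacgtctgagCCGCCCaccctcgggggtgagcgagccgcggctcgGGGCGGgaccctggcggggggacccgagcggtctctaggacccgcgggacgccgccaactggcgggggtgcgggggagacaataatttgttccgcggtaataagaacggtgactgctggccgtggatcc
TIMP4, chr3:12158913-12159162, minus strand: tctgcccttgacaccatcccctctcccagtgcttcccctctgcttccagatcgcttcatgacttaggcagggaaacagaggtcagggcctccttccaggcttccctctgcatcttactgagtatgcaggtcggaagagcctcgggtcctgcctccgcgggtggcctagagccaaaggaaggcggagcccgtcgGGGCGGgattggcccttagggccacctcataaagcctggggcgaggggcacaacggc
MMP7, chr11:102530748-102530997, minus strand: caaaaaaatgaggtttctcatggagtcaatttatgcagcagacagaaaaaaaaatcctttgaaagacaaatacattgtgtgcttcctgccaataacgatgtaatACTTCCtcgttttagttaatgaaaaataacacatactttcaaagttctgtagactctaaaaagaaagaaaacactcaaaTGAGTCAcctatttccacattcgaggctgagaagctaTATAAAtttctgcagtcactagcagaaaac
The ADAMTS12 window held 1 GC box, 1 match to the AP-1 pattern with A in the middle, and 21 CpG. The ADAM12 window held GC boxes and 31 CpG, and the TIMP4 window 1 GC box and 11 CpG. That of MMP7 held an ETS match, an AP-1 match with G in the middle and a TATA match with 3 CpG. Over the 27305 genes of the table, AP-1 was found in 6.60% of windows, TATA in 11.1%, the GC box in 42.3% and ETS in 19.9%, and the median was 11 CpG. Of the 72 members, 43 had a window in the table. Among 23 tested members the median was 25 CpG, 21 held a GC box and 0 a TATA match. Among 20 untested members the median was 7 CpG, 8 held a GC box and 8 a TATA match. These matches describe letters and not bound factors.

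ADAMTS8, a secreted enzyme with weak activity on aggrecan, fell with both guides. Its sgControl signals were 30.4, 48.6 and 56.8 (25, 65 and 49 reads). They were 0, 1.44 and 0 with KO#1 (0, 2 and 0 reads) and 2.56, 8.78 and 3.56 with KO#2 (1, 7 and 5 reads). No knockout library reached the lowest control library. The difference with KO#2 was -3.05 (SE 0.68, limma adjusted p = 0.0494), and that with KO#1 had an adjusted p of 0.00393. The KO#1 side rests on 2 reads in all, so its fitted difference is not given as a fold. The KO#1 call held with any 1 library left out (adjusted p up to 0.0329). For KO#2, leaving out any 1 sgControl or KO#1 library or KO#2 replicate 3 ended the call (adjusted p up to 0.259), and without KO#2 replicate 1 the adjusted p was 0.0242.

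**Figure D4:**
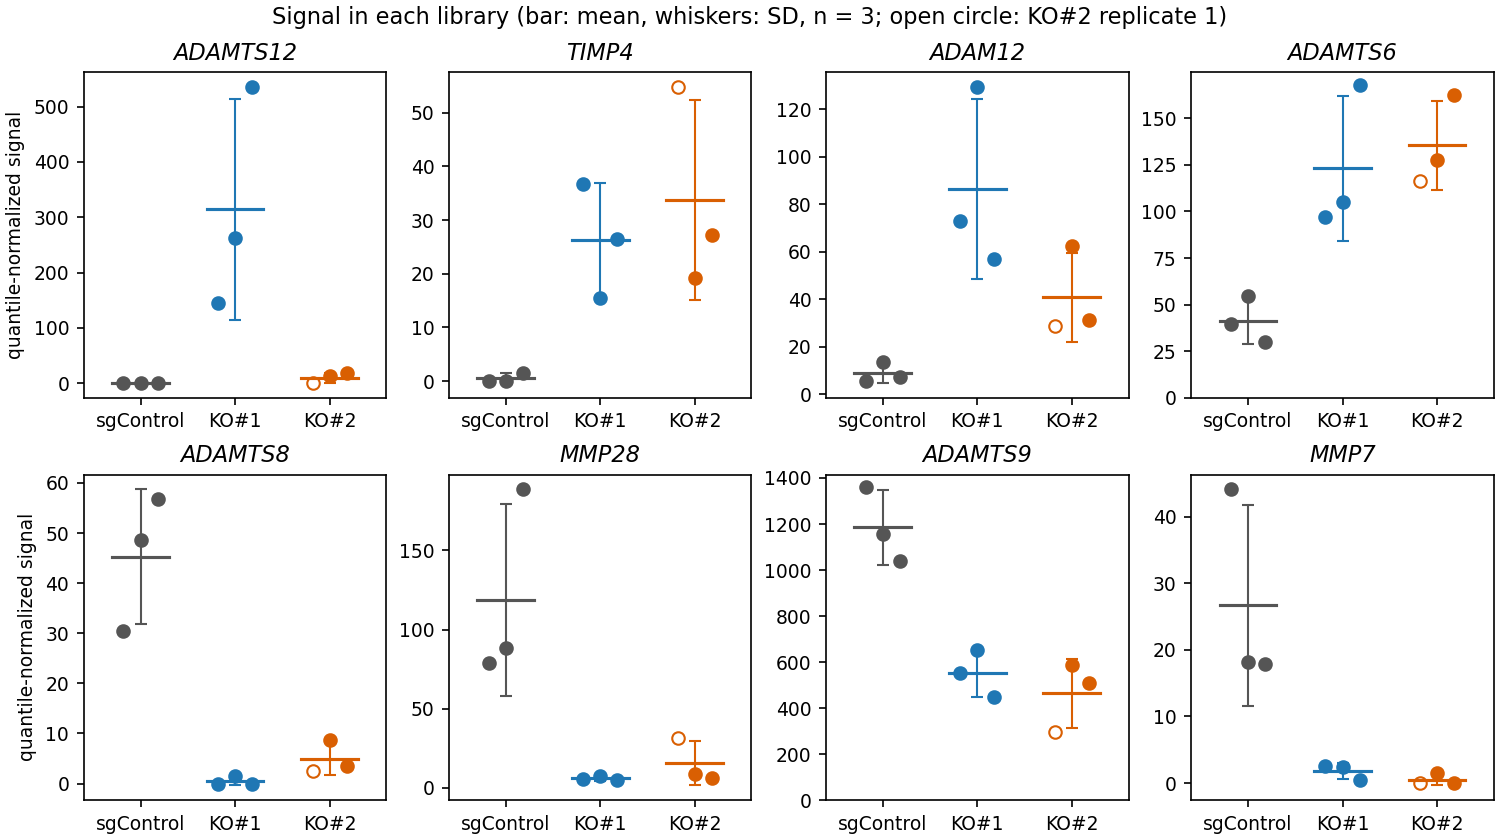
Each panel gives 1 gene, with the quantile-normalized signal on a linear vertical axis and the 3 groups on the horizontal axis. Points are libraries, bars means, whiskers SD (n = 3), and open circles KO#2 replicate 1. ADAMTS12, TIMP4, ADAM12 and ADAMTS6 have higher knockout means, with ADAMTS12 at 144 to 536 in KO#1 and at most 17.4 in KO#2, and ADAMTS8, MMP28, ADAMTS9 and MMP7 have lower ones.

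ADAMTS6, a secreted enzyme known from mouse heart development, had sgControl signals of 39.4, 54.4 and 30.2. Its signals were 96.9, 104.8 and 168 with KO#1 and 117, 128 and 162 with KO#2. All 6 knockout libraries lay above the controls. The mean of both guides was 1.63 higher (SE 0.34, adjusted p = 0.0268), and the single guides gave adjusted p of 0.0808 and 0.0552. Without KO#2 replicate 1 these were 0.0110 and 0.0123. ADAMTS7, which like ADAMTS12 cuts COMP, was at 287, 201 and 205 in sgControl, at 572, 472 and 556 with KO#1, and at 1296, 430 and 619.8 with KO#2. The differences of 1.22 and 1.62 missed the threshold (adjusted p = 0.221 and 0.0807) and passed it without KO#2 replicate 1 (0.00691 and 0.0196). ADAMTS7 has near-identical pseudogene copies and its reads are uncertain. MORF4L1 overlaps it on the opposite strand and was at 979 to 1203 in sgControl, at 1769 to 2216 with KO#1 and at 425 to 1918 with KO#2. The part of MORF4L1 reads in the ADAMTS7 signal was not tested. The 20 tested genes nearest to ADAMTS7 on chromosome 15 had a median difference of 0.69 with KO#1 and 0.47 with KO#2 (0.70 without KO#2 replicate 1). With the neighbours' median removed, the adjusted p of ADAMTS7 was 0.634 and 0.238.

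ADAMTS9, a secreted protease of versican and aggrecan, fell in the mean of both guides. Its signals were 1362, 1156 and 1038 in sgControl, 553, 652 and 447 with KO#1, and 296, 587 and 509.8 with KO#2. No knockout library reached the controls. The mean of both guides was -1.26 from sgControl (SE 0.29, adjusted p = 0.0456), while the single guides had adjusted p of 0.163 and 0.0681, or 0.00620 and 0.0157 without KO#2 replicate 1. ADAMTS9-AS2, an antisense gene that overlaps it, was at 18.6 to 60.3 in sgControl. It was at 13.3 to 17.8 with KO#1 and at 6.11 to 39.9 with KO#2. The part of its reads in the ADAMTS9 signal was not tested. The calls of ADAMTS6 and ADAMTS9 over both guides were lost when any 1 sgControl or KO#1 library or KO#2 replicate 3 was left out (adjusted p up to 0.195 and 0.276).

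ADAMTS15, a further protease of versican and aggrecan, was at 699, 354 and 736 in sgControl, at 157, 102 and 82.1 with KO#1, and at 484, 159 and 122 with KO#2. Only KO#1 lay wholly below the controls, and its difference was -2.36 (SE 0.54, adjusted p = 0.0505), just outside the threshold. Without KO#2 replicate 1 the adjusted p was 0.00181 for KO#1 and 0.0113 for KO#2. ADAMTS16, known for cutting fibronectin, was at 453, 204 and 291 in sgControl, at 102, 66.7 and 65.3 with KO#1, and at 221, 102 and 50.9 with KO#2. KO#2 replicate 1 overlapped the controls, and the adjusted p of 0.113 and 0.242 became 0.00757 and 0.0154 without it. The 20 nearest tested genes on chromosome 5 had medians of -0.95 and -1.04, and with that median removed the differences of ADAMTS16 were -0.85 and -0.47 (adjusted p = 0.625 and 0.718). ADAMTS14, a procollagen N-proteinase, was at 75.2, 32.2 and 91.6 in sgControl, at 26.7, 24.3 and 18.8 with KO#1, and at 22.0, 9.89 and 15.3 with KO#2. It did not pass the threshold with all libraries (adjusted p = 0.321 and 0.102) and did so for KO#2 without replicate 1 (0.0200).

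ADAMTS1, which cuts versican and aggrecan, was at 1349, 1163 and 863 in sgControl, at 3351, 1268 and 2426 with KO#1, and at 1973, 1388 and 1968 with KO#2. All KO#2 libraries lay above the controls, with differences of 0.98 and 0.66 that missed the threshold (adjusted p = 0.337 and 0.486). ADAMTS3, which processes procollagen and the lymphatic growth factor VEGF-C, was at 1342, 1475 and 1323 in sgControl, at 1024, 1772 and 2114 with KO#1, and at 314, 1567 and 1304 with KO#2. Its groups overlapped. Of the ADAMTS-like proteins, 3 of 5 were tested and 0 were called with all libraries. ADAMTSL3, a matrix protein also called punctin-2, was at 274, 171 and 198 in sgControl, at 117 ± 14.3 with KO#1 (SD, n = 3), and at 98.7, 80.8 and 68.7 with KO#2. All knockout libraries were below the controls (differences of -0.85 and -1.35, adjusted p = 0.348 and 0.0840), and without KO#2 replicate 1 the adjusted p was 0.0480 and 0.0106. ADAMTSL5 was at 131 ± 19.8 in sgControl, at 84.8 ± 11.4 with KO#1, and at 275, 54.2 and 104 with KO#2. ADAMTSL4 had means of 26.4 ± 8.89, 32.4 ± 10.2 and 40.2 ± 45.4 (SD, n = 3) in sgControl, KO#1 and KO#2. The untested ADAMTSL1 reached 17.8.

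Of the ADAMs, 11 of 22 were tested and 1 was called. ADAM12, a sheddase also called meltrin alpha, rose with KO#1. Its sgControl signals were 5.67, 13.6 and 7.33 (5, 17 and 6 reads). They were 73.1, 129 and 56.8 with KO#1 (87, 152 and 84 reads) and 28.7, 62.3 and 31.4 with KO#2 (6, 49 and 41 reads). Every knockout library was above every control library. The difference was 3.14 with KO#1 (SE 0.53, adjusted p = 0.0110) and 2.08 with KO#2 (SE 0.53, adjusted p = 0.0857), and 2.28 with KO#2 when its replicate 1 was left out (adjusted p = 0.0219). For KO#1, leaving out sgControl replicate 1 or 3 or KO#1 replicate 1 or 2 ended the call (adjusted p up to 0.0814). The difference of KO#2 from KO#1 was -1.07 for ADAM12 and was not called (adjusted p = 0.748).

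ADAM33, a membrane-bound protease of mesenchymal cells, was at 42.3, 23.0 and 24.3 in sgControl, at 3.0, 5.44 and 4.0 with KO#1, and at 16.2, 0 and 5.67 with KO#2. All knockout libraries were below the controls. The adjusted p was 0.275 and 0.240 with all libraries and 0.0341 and 0.0199 without KO#2 replicate 1. ADAM19, a sheddase of neuregulins, was at 326, 295 and 256 in sgControl, at 556, 569.9 and 451 with KO#1, and at 672, 183 and 277 with KO#2. KO#1 lay above the controls and KO#2 spanned them, and without KO#2 replicate 1 only KO#1 was called (adjusted p = 0.0324). CYFIP2 overlaps ADAM19 on the opposite strand. It was at 989 to 1500 in sgControl, at 1063 to 1355 with KO#1 and at 1064 to 1651 with KO#2. The part of CYFIP2 reads in the ADAM19 signal was not tested. ADAM11, a catalytically inactive receptor known from neurons, was at 94.7, 83.1 and 69.2 in sgControl, at 26.0, 24.3 and 23.6 with KO#1, and at 321, 32.3 and 71.4 with KO#2. It was called lower with KO#1 without KO#2 replicate 1 (adjusted p = 0.00922) and not in the reported fit with all libraries.

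None of the abundant sheddases passed the test with all libraries. ADAM10 was at 3817, 3491 and 4449 in sgControl, at 5063, 6148 and 6738 with KO#1, and at 613, 8090 and 6704 with KO#2. All KO#1 libraries lay above the controls (0.61, SE 0.78, limma adjusted p = 0.959). Without KO#2 replicate 1, which shares the estimate of spread, the KO#1 SE was 0.19 and the adjusted p 0.0627. The limma fit of only sgControl and KO#1 called ADAM10 (adjusted p = 0.0489). The low value of 613 is KO#2 replicate 1, and without it the KO#2 difference was 0.92 (adjusted p = 0.0267), where it was -0.28 (adjusted p = 0.884) with all libraries. ADAM9 was at 4141, 4209 and 5537 in sgControl, at 5073, 5063 and 5660 with KO#1, and at 541, 5588 and 4246 with KO#2, and overlapped in all groups. ADAM15 had means of 802 ± 124, 875 ± 180.4 and 1408 ± 1022, and ADAM17 had means of 715 ± 72.7, 575 ± 164 and 548 ± 278 (SD, n = 3) in sgControl, KO#1 and KO#2. Neither passed the threshold under any alternative tried (lowest adjusted p 0.282 and 0.331). ADAM28, untested for its low mean, had 15 reads in all, every one in the KO#1 libraries.

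Of the MMPs, 6 of 22 were tested, and MMP28 was the only one called with all libraries. MMP28, or epilysin, a secreted MMP of epithelia, fell with both guides. Its sgControl signals were 78.7, 88.7 and 189 (63, 120 and 166 reads). They were 5.67, 7.56 and 4.89 with KO#1 (7, 9 and 7 reads) and 31.7, 9.11 and 6.11 with KO#2 (6, 7 and 8 reads). No knockout library reached the controls. The difference was -3.99 with KO#1 (SE 0.64, adjusted p = 0.00903) and -3.06 with KO#2 (SE 0.64, adjusted p = 0.0363), or -3.71 with KO#2 without its replicate 1 (adjusted p = 0.00131). For KO#1, leaving out sgControl replicate 3 or KO#1 replicate 1 or 3 ended the call (adjusted p up to 0.0663), as did leaving out any library other than KO#2 replicate 1 for KO#2 (up to 0.215). TAF15 overlaps MMP28 on the opposite strand and was at 442 to 853 in sgControl at 948 to 1479 with KO#1 and at 494 to 1075 with KO#2, which overlapped sgControl.

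MMP7, or matrilysin, a small secreted MMP of glandular epithelium, had a mean signal below the filter and is named after its values had been seen. Its signals were 44.1, 18.1 and 17.9 in sgControl (35, 23 and 14 reads). They were 2.56, 2.44 and 0.444 with KO#1 (3, 3 and 1 reads) and 0, 1.44 and 0 with KO#2 (0, 1 and 0 reads). The knockout libraries were all below the controls, and in the fit with no filter on low values the adjusted p was 0.0410 for KO#1 and 0.0163 for KO#2. MMP11, or stromelysin-3, was at 382, 153 and 326 in sgControl, at 112, 51.9 and 89.2 with KO#1, and at 380.4, 93.9 and 135 with KO#2. It was not called in the reported fit with all libraries, and was called lower with KO#1 without KO#2 replicate 1 (adjusted p = 0.0200). The fits with the GC trend removed and with only the 2 groups compared also called MMP11 with KO#1. CHCHD10 overlaps MMP11 on the opposite strand, so the reads of MMP11 are uncertain. CHCHD10 was at 239 to 326 in sgControl, at 168 to 185 with KO#1 and at 199 to 636 with KO#2. The part of CHCHD10 reads in the MMP11 signal was not tested. The membrane-bound MMP14 was at 1095, 1042 and 981 in sgControl, at 1429, 1212 and 1385 with KO#1, and at 1200, 719.6 and 834 with KO#2. KO#1 lay above the controls by 0.37 (adjusted p = 0.805) and KO#2 overlapped them. MMP15 had means of 153 ± 13.6, 115 ± 35.7 and 223 ± 216, and MMP24 of 282 ± 23.1, 292 ± 56.5 and 509 ± 199.6 (SD, n = 3) in sgControl, KO#1 and KO#2. These are membrane-bound MMPs, and neither was called under any alternative tried (lowest adjusted p 0.193 and 0.212 with KO#2).

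Of the inhibitors, TIMP4 rose with both guides, and TIMP1 and TIMP2 did not pass the test. TIMP4 had 0, 0 and 1 reads in the sgControl libraries (signals of 0, 0 and 1.56). Its signals were 36.7, 15.6 and 26.6 with KO#1 (44, 18 and 39 reads) and 54.8, 19.2 and 27.2 with KO#2 (9, 14 and 35 reads). Every knockout library was above every control library. The adjusted p was 0.00795 with KO#1 and 0.00554 with KO#2, and no fold is given, since the control side rests on 1 read. The KO#2 call held with any 1 library left out (up to 0.0392) and was lost with KO#2 and sgControl fitted alone (0.0578), and the KO#1 call was lost without KO#1 replicate 1 or 3 (up to 0.0622). TIMP4 lies within SYN2 on the opposite strand, and SYN2 reached at most 5.78 in any library. TIMP2 was at 1871, 2166 and 3092 in sgControl, at 3336, 2794 and 3551 with KO#1, and at 2905, 1243 and 2455 with KO#2. TIMP1 was at 390.4, 315 and 285 in sgControl, at 433, 293 and 366 with KO#1, and at 1138, 335 and 403 with KO#2. Both overlapped between groups, with differences of 0.47 and -0.17 for TIMP2 and 0.14 and 0.71 for TIMP1.

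The other tested members were ADAM8, ADAM22, ADAM32, ADAMTS5, ADAMTS13, ADAMTS17 and MMP17. Their sgControl means were between 10.9 (ADAM32) and 174 (ADAM22), and the reported fit, with or without KO#2 replicate 1, called none. MMP17 was called with KO#1 with array weights and in the fit of only sgControl and KO#1. Over both guides, MMP17 was called with array weights and with the GC trend removed, and ADAMTS17 with array weights. Of the untested members not yet described, ADAM23, MMP19 and MMP25 had reads in all 9 libraries, with at most 16, 15 and 12 reads. ADAMTS4 and ADAMTS18 had at most 6 and 9 reads, and ADAMTS10, ADAMTSL2, MMP12, MMP16 and MMP21 at most 1.

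Partners that direct these proteases were described from lists. Of 20 partners and regulators 15 were tested, and 2 fell with KO#1 and 0 were called with KO#2, where 0.97% and 0.87% of all features were called lower. TSPAN15, a tetraspanin that carries ADAM10 to the cell surface, went from 349.9 ± 94.2 in sgControl to 52.8 ± 5.12 with KO#1 (-2.68, adjusted p = 0.00393) and was at 123 ± 34.2 with KO#2 (adjusted p = 0.0683; n = 3 libraries each). The tetraspanins TSPAN5, TSPAN14, TSPAN17 and TSPAN33, which also bind ADAM10, were not called with all libraries. PAPLN, or papilin, a matrix protein related to the ADAMTS-like proteins, fell by 2.25 with KO#1 (adjusted p = 0.0384). Without KO#2 replicate 1, 6 were called with KO#1, TSPAN15, PAPLN, TSPAN33 and RECK lower and TSPAN5 and SDC4 higher, and TSPAN15 and PAPLN were called lower with KO#2, where 12.3% and 8.02% of all features were called. SPOCK1, a matrix proteoglycan that was below the filter, was at 14.2 ± 2.95 in sgControl and listed at 0 in both knockout groups.

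Among 9 other metalloproteases of the metzincin clan, 4 were tested. PAPPA, which cuts proteins that bind insulin-like growth factors, fell from 652 ± 97.2 to 61.6 ± 32.9 with KO#1 (-3.50, adjusted p = 0.0262) and 22.1 ± 16.7 with KO#2 (-5.24, adjusted p = 0.00372). Its homolog PAPPA2 was at 4.04 ± 3.50 in sgControl and at 58.4 ± 33.0 with KO#2, where it rose (3.68, adjusted p = 0.0319). BMP1, which trims procollagens, and its relative TLL2 were not called.

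Known targets of these enzymes were described likewise. Of 26 gene names listed for proteins shed by ADAM10 or ADAM17, 24 were among the features and 21 were tested. Of these, 2 fell with KO#1 (CDH1 and L1CAM) and 1 with KO#2 (CDH1), where 0.97% and 0.87% of all features were called lower. L1CAM, a neural adhesion protein, was at 10410 in sgControl and at 3401 with KO#1 on average (-1.62, adjusted p = 0.0196). The median difference of the list was 0.03 with KO#1 and -0.05 with KO#2. Without KO#2 replicate 1, EREG, ALCAM and HBEGF joined as higher with KO#1, and with KO#2 L1CAM was called lower (adjusted p = 0.0071) and EREG higher (0.010). Of 22 matrix proteins cut by ADAMTS or MMP enzymes, 11 were tested. SPARC rose with KO#1 (1.63, adjusted p = 0.0156), and THBS1, COL4A1 and FN1 fell with KO#2 (-2.81, -2.39 and -1.63, adjusted p = 0.00175, 0.00722 and 0.0279), where 1.36% of all features were called higher with KO#1 and 0.87% lower with KO#2. In the fit without KO#2 replicate 1, 5 of the 11 were called with each guide, against 12.3% and 8.02% of all features. ACAN and COMP, the cartilage proteins cut by several of the ADAMTS enzymes above, were at most 1.44 and 3.56 in any library, whereas VCAN, the versican gene, was at 3210 ± 599.9 in sgControl and 3234 ± 624.5 with KO#1 (SD, n = 3) and was not called.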

How the data were processed

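Per the labels' protocols, total RNA of ACHN cells was made into strand-specific libraries and sequenced as paired ends. The deposited table holds 57773 features in 9 libraries. The authors deposited a signal, made by quantile normalization of each gene's total reads, per the name of the table, so that all libraries share 1 set of values and raw totals are unknown. Per the submitters' processing notes the build was mm10, which is of mouse, whereas genes carry human names. No coordinates were taken from the table. For the aligner, the counter and the use of strand, not given in the sources used here, nothing was assumed, so overlapping genes, antisense pairs and near-identical copies are uncertain.

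Values were transformed to log2(signal + 1), and features with a mean of at least 10 were tested with limma 3.58.1 (R 4.3.3), in 1 linear model with 3 groups, with empirical Bayes moderation in which the variance may follow the mean. Two-sided p-values had Benjamini-Hochberg adjustment over 12985 features, and a feature was called at an adjusted p under 0.05. On this scale differences of weakly expressed genes come out too small. SE is the moderated standard error. The script was tested on simulated data. Quantile normalization ranked features with equal reads by their order in the table, from which whole reads were read back up to a signal of 356 (2589 levels, 0 of which failed to add up). Signal per kb uses the longest annotated GENCODE transcript. The members, gene lists and alternatives were chosen with earlier results of these data known. Motifs, promoters shown, the reading of reads, GC content, neighbouring genes and counts of separated groups were chosen after the values had been seen. The genes named are ADAMTS12, members called in any comparison with or without KO#2 replicate 1, all TIMPs, the 4 members of each other family with the highest sgControl mean, and list genes called with either guide. All sample columns were used, and 0 pairs of libraries held identical values.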

Additional observations from a re-analysis of the deposited data

How the results depend on the processing

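No paired analysis was possible because the labels give no replicate numbers. Shifting each library to a common median, robust moderation, an untrended variance, a pseudocount of 0.1 and no filter on low values kept each count of members called within 1.5 times its value. With KO#2, however, a pseudocount of 0.1 lost ADAMTS8, and no filter on low values lost ADAMTS8 and MMP28 and called MMP7 beside TIMP4. With a mean of at least 50, which leaves fewer members tested, 1 member was called with KO#1 (1.31% of all features) and 0 with KO#2 (1.27%). At that filter 0 were called alike (0.798%) and 2 over both guides (1.87%). Fitting only the 2 groups compared called 17 with KO#1 (14.5% of all features), 0 with KO#2 (0.608%) and 0 alike (0.585%). There the fit for KO#1 holds no KO#2 library. Array weights (gene-by-gene estimates, taken after the default method had failed to converge) called 18 with KO#1 (21.3% of all features) and 13 with KO#2 (9.96%). With these weights 13 were called alike (8.66%), 1 between the guides (0.185%) and 19 over both (21.6%). Removing the GC trend called 13 with KO#1 (8.49%), 12 with KO#2 (7.98%), 10 alike (5.09%) and 15 over both (11.5%). Removing the median of the 20 nearest genes called 8 with KO#2 (3.03%) and 6 alike (2.14%). A pseudocount of 10 called 1 between the guides (0.0308%). Leaving out each library in turn gave 2 to 15 members with KO#1, 1 to 14 with KO#2, 0 to 12 alike, 0 to 1 between the guides and 3 to 16 over both, with the highest number in each case without KO#2 replicate 1 and the lowest over both without sgControl replicate 3. The GC and neighbour settings were chosen after seeing the data.

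Some differences that were not called in the reported fit changed sign. With array weights the KO#2 difference was 0.72 for ADAM10, -0.38 for ADAM11, -0.065 for ADAM15, 0.0088 for ADAM17, -0.16 for ADAM19 and -0.70 for MMP15. With the GC trend removed it was 0.24 for ADAM10, -0.21 for ADAM11, -0.085 for ADAM19 and -0.28 for MMP15. With the neighbours' median removed, the KO#1 difference was -0.38 for ADAM9, 0.034 for ADAMTSL5, -0.51 for MMP24 and -0.014 for TIMP1, and the KO#2 difference was 0.039 for ADAMTSL5 and -0.40 for MMP15. A pseudocount of 10 gave 0.084 for ADAMTSL4 with KO#2. Over the fits that leave out 1 library, the KO#2 difference ran from -0.94 to 0.92 for ADAM10, -0.75 to 0.89 for ADAM11, -0.37 to 0.57 for ADAM19, -1.60 to 0.087 for ADAM9, -1.10 to 0.053 for ADAMTS3, -1.02 to 0.84 for ADAMTSL4, -0.78 to 0.38 for ADAMTSL5, -0.64 to 0.58 for MMP15 and -0.41 to 0.20 for TIMP2. The KO#1 difference ran from -0.013 to 0.30 for ADAM15, -0.033 to 0.49 for ADAMTS3, -0.014 to 0.58 for ADAMTSL4 and -0.10 to 0.18 for MMP24. Only that of ADAM10 without KO#2 replicate 1 passed the threshold after such a change. The cause was not tested. Values from few reads, such as those of TIMP4, ADAMTS8 and MMP7, are limited by depth, most of all in KO#2 replicate 1.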
